A study of Rattus norvegicus with 10 samples.

Results

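Autophagy core machinery was taken as 37 listed genes, of which 33 were measured among the 14217 named genes of the array. A gene was measured where at least 1 probe set carried its symbol and no other, which gave 55 of the 31042 probe sets, and a gene with several probe sets was given their mean. The other 4 were not measured: the probe sets of Map1lc3b, Gabarapl2 and Nbr1 also carry a second gene's symbol, and Atg4c had none listed. The study used the Rat Genome 230 2.0 array, a chip of short probes read as fluorescence, on heart RNA from male rats of the inbred Fischer-344 strain, which is used widely in work on aging. The 5 Young arrays came from rats of 6 months and the 5 Old arrays from rats of 24 months, all on a standard chow diet and with no treatment named. The sample protocols speak of whole hearts and the series text of ventricles, so the share of atrial tissue is unsettled. The labels do not say that each array is a separate rat, so the p-values reflect only how far these samples spread, which may be technical. Every value is a log2 distance from a probe set's own median over the 10 arrays, so it compares arrays and carries no level of a gene. The log base was inferred and not stated.

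Autophagy delivers parts of the cytoplasm to the lysosome for breakdown. The ULK1 kinase complex starts it, the class III PI 3-kinase complex marks the forming membrane with the lipid PI3P, and ATG9 and ATG2 supply membrane. A pair of ubiquitin-like conjugation systems then attaches proteins of the LC3 and GABARAP family to that membrane, where cargo receptors dock. Heart muscle cells divide little and depend on this route to renew mitochondria and proteins, and Bnip3, Bnip3l and Fundc1 encode receptors that sit on mitochondria.

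The promoters of the 3 genes that changed with age, Ulk1, Pik3c3 and Gabarap, are shown first, with that of Atg3, whose promoter held 2 E-box cores. Each sequence spans 250 bases before and 50 after the gene's start in RefSeq (GRCr8), on the gene's own strand. Ulk1 lies at chr12:51511242-51511541 (plus strand), Pik3c3 at chr18:22119607-22119906 (plus), Gabarap at chr10:55213215-55213514 (plus) and Atg3 at chr11:69159231-69159530 (minus). Capitals mark the E-box core CACGTG in Atg3 and the antioxidant response core TGACNNNGC, read here on the opposite strand, in Gabarap.
Ulk1: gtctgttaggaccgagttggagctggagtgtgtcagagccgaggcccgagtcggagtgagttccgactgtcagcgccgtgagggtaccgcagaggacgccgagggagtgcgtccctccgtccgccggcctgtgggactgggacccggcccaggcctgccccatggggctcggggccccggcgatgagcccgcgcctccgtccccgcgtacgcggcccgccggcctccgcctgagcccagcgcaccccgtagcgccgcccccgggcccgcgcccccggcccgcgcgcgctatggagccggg
Pik3c3: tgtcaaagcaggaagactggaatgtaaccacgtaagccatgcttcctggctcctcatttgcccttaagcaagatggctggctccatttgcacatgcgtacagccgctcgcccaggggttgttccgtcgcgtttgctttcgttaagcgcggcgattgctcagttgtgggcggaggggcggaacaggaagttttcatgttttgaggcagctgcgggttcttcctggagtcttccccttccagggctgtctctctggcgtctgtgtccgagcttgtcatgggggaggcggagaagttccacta
Gabarap: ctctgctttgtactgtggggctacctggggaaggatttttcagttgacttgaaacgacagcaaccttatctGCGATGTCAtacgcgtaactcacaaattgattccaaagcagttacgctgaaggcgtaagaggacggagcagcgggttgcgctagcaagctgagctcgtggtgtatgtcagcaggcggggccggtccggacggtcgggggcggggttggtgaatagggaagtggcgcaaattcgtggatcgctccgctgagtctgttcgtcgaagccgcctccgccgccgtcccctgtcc
Atg3: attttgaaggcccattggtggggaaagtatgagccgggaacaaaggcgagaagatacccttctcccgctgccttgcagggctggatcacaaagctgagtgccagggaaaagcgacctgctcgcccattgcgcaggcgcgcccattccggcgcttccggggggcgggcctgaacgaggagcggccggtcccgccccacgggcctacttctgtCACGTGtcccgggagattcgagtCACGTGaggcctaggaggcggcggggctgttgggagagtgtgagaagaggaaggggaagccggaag

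The table of promoters held 31 of the 37 genes. It did not list Rb1cc1, Becn1, Atg9a, Map1lc3a, Bnip3l and Fundc1. TFEB, the transcription factor best known for driving autophagy and lysosome genes, binds the CLEAR element, a palindrome which contains the E-box core. Searched on both strands, the CLEAR element was found in 0 of the 31 promoters and in 0.233% of all 33469 promoters in the table. The core CACGTG was found in 4 of 31, those of Atg3, Atg5, Atg14 and Bnip3, against 6.42% of all promoters. None of these 4 genes passed the test between the ages. The forkhead core TGTTTAC, bound by FoxO factors, was found in 0 of 31 and in 3.78% of all promoters. The antioxidant response core TGACNNNGC, bound by the factor that Nfe2l2 encodes, was found in 6 of 31 (Atg4b, Atg4d, Atg10, Ulk2, Gabarap and Map1lc3b) and in 12.1% of all promoters. The 31 promoters had a median GC content of 60.7%, against 52.3% over the 27457 genes of the table. The Ulk1 promoter, at 76.7%, was the richest of the 31.

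Between the ages, Ulk1 was lower and Pik3c3 and Gabarap were higher in old hearts, and the other 30 genes did not pass the test. By limma with Benjamini-Hochberg adjustment over all 14217 genes, 3 of 33 genes passed the threshold of 0.05 (9.09%), against 11.9% of all genes. Of these 3, 2 rose and 1 fell. Over all genes 6.77% rose and 5.09% fell. At an unadjusted limma p under 0.05 the share was larger than in the background, with 12 of 33 (36.4%) against 26.3% of all genes. The median difference over the 33 genes was 0.03, and that over all genes -0.01. A higher mean in Old was found in 18 of the 33 (54.5%), against 48.2% of all genes. The median size of a difference, sign set aside, was 0.084 in the 33 genes and 0.0764 in all genes. Young and Old values did not overlap in 2 of the 33, Ulk1 and Ambra1 (6.06%), against 9.91% of all genes. The spread within an age was also ordinary, with a median SD of 0.09 against 0.10 over all genes. Differences ran from -0.39 for Ulk1 to 0.35 for Pik3c3. Of the 33 genes, 5 differed by more than 0.2 in either direction, against 2516 of all 14217 genes. All of these are bulk values, in which fewer cells of a type and less RNA per cell cannot be told apart.

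**Figure D1:**
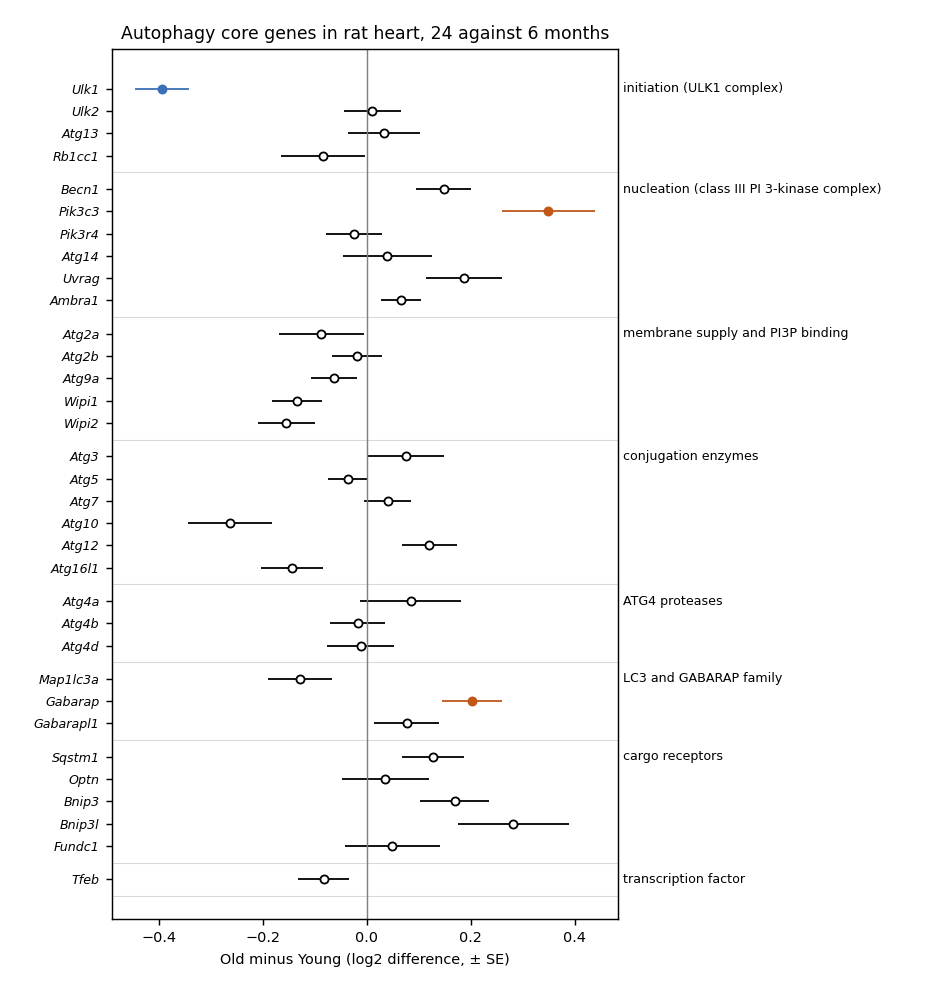
Difference Old minus Young (x axis, log2) for the 33 measured genes, grouped by role, with bars of ± SE from limma (5 arrays per age); filled points passed the test (blue lower, orange higher in Old). Ulk1 at -0.39 stands apart on the left and Pik3c3 at 0.35 on the right, and most other bars lie near 0.

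In the initiation complex, Ulk1 fell with age and its partners did not pass. Ulk1 encodes the kinase that starts autophagosome formation under control of mTORC1 and AMPK. Its values on Young arrays 1, 2, 3, 4 and 6 were 0.16, 0.26, 0.38, 0.27 and 0.23, and on Old arrays 2, 3, 4, 5 and 6 they were -0.09, -0.09, -0.10, -0.18 and -0.21. Every Young array lay above every Old array. The difference was -0.39 ± 0.05 SE, a level 1.31-fold higher in Young, with a limma adjusted p of 0.00131 (n = 5 per age). It passed with any 1 array left out, with differences from -0.42 to -0.36. The 2 probe sets of Ulk1 gave -0.64 ± 0.08 SE (adjusted p over probe sets 0.000857) and -0.15 ± 0.06 SE (0.122), so the size rests mainly on the first. Ulk2, the related kinase, gave 0.01 ± 0.05 SE (adjusted p = 0.932). Atg13, the adaptor that binds both kinases, gave 0.03 ± 0.07 SE (0.810), and Rb1cc1, which encodes the scaffold FIP200, gave -0.08 ± 0.08 SE (0.566). The 95% interval of Ulk2 ran from -0.11 to 0.13 and that of Atg13 from -0.12 to 0.18.

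In the PI 3-kinase complex that nucleates the membrane, 5 of 6 genes had a higher mean in old hearts, against 48.2% of all genes. The lipid kinase gene Pik3c3 alone passed. Pik3c3 encodes VPS34, the enzyme that makes PI3P. It gave -0.24, -0.37, -0.33, 0.10 and -0.22 on Young arrays 1, 2, 3, 4 and 6. On Old arrays 2, 3, 4, 5 and 6 it gave 0.00029, 0.25, -0.00029, 0.25 and 0.18. Young array 4 lay among the Old values, and the other 4 Young arrays lay below every Old array. The difference was 0.35 ± 0.09 SE, or 1.27-fold (limma adjusted p = 0.0261). This call was lost without Young array 2 (0.0678), 3 (0.0706) or 6 (0.0522), without Old array 5 (0.0703) or 6 (0.0588), and without Old arrays 3 and 6 together (0.119).

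The partners of Pik3c3 had smaller differences. By unadjusted limma p under 0.05, 3 of the 6 genes passed (Pik3c3, Becn1 and Uvrag), against 26.3% of all genes. Becn1, which encodes the scaffold Beclin 1, gave -0.0060, -0.21, -0.07, 0.0060 and -0.14 on Young arrays 1, 2, 3, 4 and 6, and 0.09, -0.01, 0.09, 0.04 and 0.10 on the Old arrays in order of number. In Becn1, 4 Old arrays lay above every Young array, and Old array 3 was the exception. Its difference was 0.15 ± 0.05 SE (limma adjusted p = 0.0905). Uvrag, a subunit of the complex that acts in later steps, gave 0.19 ± 0.07 SE (0.122), and passed without Old array 3 (0.0394). Ambra1, which links Beclin 1 to the ULK1 complex, gave -0.03, -0.05, -0.02, -0.05 and -0.02 on the Young arrays and 0.03, 0.03, 0.07, 0.03 and 0.0068 on the Old arrays. Its ages did not overlap, but the difference was small, 0.07 ± 0.04 SE, and did not pass (0.310). Taken singly, neither of its 2 probe sets separated the ages (differences of 0.03 and 0.11). Atg14, the subunit that directs the complex to autophagy, gave 0.04 ± 0.09 SE (0.819). Its Young values ran from -0.28 to 0.28 and its Old values from -0.01 to 0.06. Pik3r4, the regulatory subunit VPS15, gave -0.02 ± 0.05 SE (0.820).

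**Figure D2:**
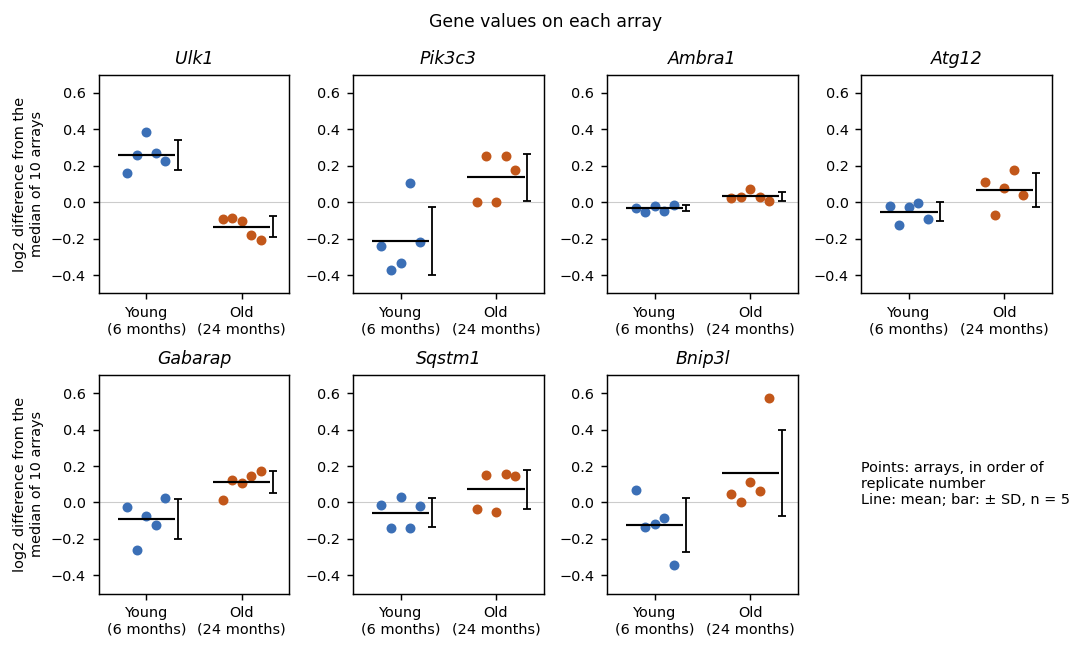
Gene value on each array for the 7 genes that passed, did not overlap between the ages or had a probe set that passed. The y axis is the log2 difference from the median of the 10 arrays, taken per probe set and averaged over a gene's probe sets. Points are arrays, lines means and bars ± SD (n = 5). Ulk1 and Ambra1 separate the ages fully, Ambra1 by a narrow gap seen only in the mean of its probe sets, and Bnip3l on Old array 6 lies at 0.57.

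All 5 genes of membrane supply and PI3P binding had lower means in old hearts, as did 7365 of all 14217 genes, and 0 of 5 passed. By unadjusted limma p under 0.05, 2 of the 5 did, the PI3P-binding genes Wipi1 and Wipi2, against 26.3% of all genes. The product of Wipi2 recruits the conjugation machinery. Wipi2 gave -0.0046, 0.17, 0.26, 0.04 and 0.14 on Young arrays and -0.09, -0.01, -0.02, -0.04 and 0.0046 on Old arrays. In Wipi2 4 Young arrays lay above every Old array and Young array 1 lay among the Old ones. The difference was -0.15 ± 0.05 SE (limma adjusted p = 0.0879, and 0.0459 without Young array 1). Wipi1 gave -0.13 ± 0.05 SE (0.0932), and the ages did not overlap in its brighter probe set, by an inferred class (-0.19 ± 0.07 SE, adjusted over probe sets 0.0955). The lipid transfer genes Atg2a and Atg2b gave -0.09 ± 0.08 SE (0.550) and -0.02 ± 0.05 SE (0.847). Atg9a, whose product is a lipid scramblase on the vesicles that seed the membrane, gave -0.06 ± 0.04 SE (0.411).

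Conjugation enzymes went in both directions, with 3 of 6 means higher and 3 lower, and 0 of 6 passed. Of the 6, 3 had an unadjusted limma p under 0.05, against 26.3% of all genes. Atg10, which encodes the enzyme that joins ATG12 to ATG5, came nearest. It gave 0.20, -0.05, 0.21, 0.13 and 0.05 on Young arrays 1, 2, 3, 4 and 6, and 0.10, -0.26, -0.08, -0.22 and -0.33 on Old arrays 2, 3, 4, 5 and 6. In Atg10, Old array 2 lay among the Young arrays and the other 4 lay below all of them. The difference was -0.26 ± 0.08 SE (limma adjusted p = 0.0543). It passed without Old array 2 (-0.33, 0.0106) or Young array 2 (-0.30, 0.0498). Atg16l1, which places the conjugation complex on the membrane, gave -0.14 ± 0.06 SE (0.149). Atg12, the ubiquitin-like tag itself, gave 0.12 ± 0.05 SE (0.170), with gene values of -0.02, -0.12, -0.02, -0.01 and -0.09 on Young arrays and 0.11, -0.07, 0.08, 0.18 and 0.04 on Old arrays. In Atg12, Old array 3 lay among the Young arrays and the other 4 above them.

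The remaining enzymes differed little. Atg7, the activating enzyme shared by both conjugation systems, gave 0.04 ± 0.04 SE (limma adjusted p = 0.628). Atg3, the enzyme that passes LC3 to its lipid, gave 0.07 ± 0.07 SE (0.580). Atg5, the partner of ATG12, gave -0.04 ± 0.04 SE (0.594). The mean of its 3 probe sets varied within an age by an SD of 0.02, the lowest of all 14217 genes. Taken singly, the probe sets varied more, with SDs of 0.08, 0.05 and 0.03 in Young and 0.03, 0.05 and 0.08 in Old. Of the ATG4 proteases, which trim LC3 before conjugation and free it afterwards, 0 of 3 passed. Atg4a gave 0.08 ± 0.10 SE (0.638), Atg4b -0.02 ± 0.05 SE (0.879) and Atg4d -0.01 ± 0.06 SE (0.940). The Old values of Atg4a ran from -0.30 to 0.30, beyond its Young values on both sides.

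In the LC3 and GABARAP family, Gabarap rose and the other 2 measured genes did not pass. The family's products are the tags on the autophagosome membrane, and LC3 is also its usual marker. Gabarap gave -0.02, -0.26, -0.07, -0.12 and 0.02 on Young arrays and 0.01, 0.12, 0.11, 0.14 and 0.17 on Old arrays. In Gabarap 4 Old arrays lay above every Young array, and Old array 2 lay below Young array 6. The difference was 0.20 ± 0.06 SE, or 1.15-fold (limma adjusted p = 0.0405). It was lost without Young array 2 (0.0852), 3 (0.0769) or 4 (0.0771), and without Old array 3 (0.0597), 4 (0.0681), 5 (0.0925) or 6 (0.0964). The call was also lost without Old arrays 3 and 6 together (0.156). Gabarapl1, a close relative, gave 0.08 ± 0.06 SE (0.487). Map1lc3a, which encodes an LC3, gave -0.01, 0.05, 0.02, 0.01 and 0.08 on Young arrays and -0.05, 0.07, -0.19, -0.05 and -0.27 on Old arrays. In Map1lc3a, Old array 3 lay among the Young arrays and the other 4 below them, and the difference was -0.13 ± 0.06 SE (0.213).

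All 5 measured cargo receptors had higher means in old hearts, against 48.2% of all genes, and 0 of 5 passed as genes. By unadjusted limma p under 0.05, 2 of 5 did, Bnip3 and Bnip3l, against 26.3% of all genes. Bnip3l encodes NIX, a receptor for mitochondria that is known for clearing them from maturing red cells. It gave 0.07, -0.13, -0.12, -0.08 and -0.34 on Young arrays and 0.04, 0.0023, 0.11, 0.06 and 0.57 on Old arrays. Bnip3l was far higher on Old array 6 than on any other, and Young array 1 lay among the Old ones. The difference was 0.28 ± 0.11 SE (limma adjusted p = 0.108) and 0.18 without Old array 6, more than 1.5 times smaller. A list of red cell markers, 3 of 4 measured (Hbb, Alas2 and Slc4a1), averaged 1.21 on Old array 6, its highest value, and between -0.49 and 0.22 on the other Old arrays. On Young array 1, the highest of the Young arrays for Bnip3l, it averaged 0.36. On Young arrays 2, 3, 4 and 6 it averaged 0.03, 0.10, -0.33 and -0.29. On Old arrays 2, 3, 4 and 5 it averaged -0.04, 0.22, -0.32 and -0.49. Old array 3, the highest of these for the list, was the lowest Old array for Bnip3l. The list's part in the Bnip3l values was not tested.

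The other receptors were closer together. Bnip3, which marks mitochondria for removal in low oxygen, gave 0.07, -0.25, -0.03, -0.13 and -0.09 on Young arrays and 0.08, 0.24, -0.01, 0.01 and 0.11 on Old arrays. The ages overlapped in Bnip3 through Young array 1, and the difference was 0.17 ± 0.07 SE (limma adjusted p = 0.122). Sqstm1 encodes p62, the receptor for ubiquitin-tagged proteins, which is itself broken down by autophagy. It gave -0.01, -0.14, 0.03, -0.14 and -0.02 on Young arrays and -0.04, 0.15, -0.05, 0.16 and 0.14 on Old arrays. In Sqstm1, Old arrays 3, 5 and 6 lay above every Young array and Old arrays 2 and 4 among them (0.13 ± 0.06 SE, 0.203). Optn, a receptor for bacteria and mitochondria, gave 0.04 ± 0.08 SE (0.834). Fundc1, a receptor on the outer membrane of mitochondria, gave 0.05 ± 0.09 SE (0.786). Tfeb gave -0.08 ± 0.05 SE (0.317).

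Set side by side, the role groups had medians of -0.04 for initiation, 0.11 for nucleation, -0.09 for membrane supply, 0.00 for conjugation, 0.08 for the LC3 and GABARAP family and 0.13 for cargo receptors. The ATG4 proteases had -0.01. The groups hold between 3 and 6 genes, and the differences between them were not tested. The mean over the 6 nucleation genes ran from -0.12 to 0.01 on Young arrays and from 0.0063 to 0.11 on Old arrays, so Young array 4, at 0.01, lay just above Old array 3. The mean over the 5 cargo receptors ran from -0.18 to 0.05 on Young arrays and from 0.02 to 0.16 on Old arrays. Young arrays 2 and 6 were the low ones, at -0.18 and -0.15. The mean over membrane supply genes ran from -0.0086 to 0.10 on Young and from -0.10 to -0.0064 on Old arrays, so Young array 1 lay below Old array 2. The mean over the 4 initiation genes ran from 0.02 to 0.15 on Young and from -0.08 to 0.05 on Old arrays. The means of the conjugation enzymes, of the ATG4 proteases and of the LC3 and GABARAP family overlapped widely. Among the 33 genes, Young array 2 was farthest from the Young mean in 11, and Old array 3 from the Old mean in 11.

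**Figure D3:**
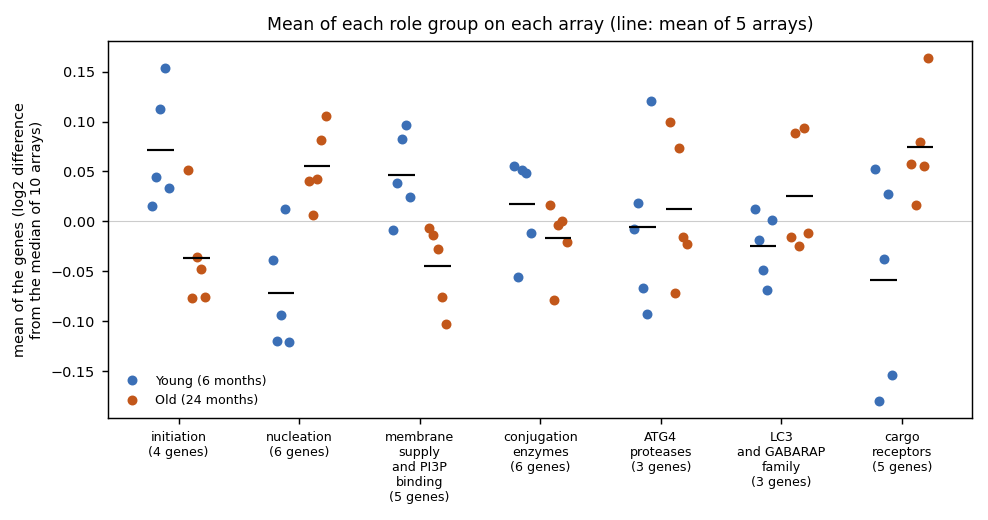
Mean over the genes of each role group on each of the 5 Young and 5 Old arrays. The y axis is the log2 difference from the median of the 10 arrays, taken per probe set before averaging. Lines are means of 5 arrays. Nucleation and cargo receptor means sit higher and membrane supply means lower in Old, while the conjugation and ATG4 points are intermixed.

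Probe sets of 1 gene often differed in size. Of the 33 genes, 15 had more than 1 probe set, and 6 of the 55 probe sets passed the test over all probe sets (10.9%), against 8.03% of all probe sets. Of these, 5 rose and 1 fell, where 4.42% of all probe sets rose and 3.6% fell. The ages did not overlap in 4 of the 55, 1 each of Ulk1, Wipi1, Gabarap and Sqstm1, against 7.32% of all probe sets. The 6 probe sets that passed belonged to 6 genes. For Atg12, Sqstm1 and Bnip3l a probe set passed where the gene's mean did not. By an inferred class, none of these was the brightest of its gene. The brightest gave 0.05 in Atg12 (limma adjusted p = 0.821), 0.20 in Sqstm1 (0.154) and 0.12 in Bnip3l (0.610). In Gabarap the brighter probe set was the one that passed. In Atg12 the probe sets gave 0.27 ± 0.07 SE (limma adjusted p = 0.0305), 0.05 and 0.04. In Sqstm1 they gave 0.36 ± 0.10 SE (0.0388), 0.20, 0.01 and -0.06. The first of these separated the ages fully, with Young values of -0.06, -0.45, -0.02, -0.16 and -0.05 and Old values of 0.02, 0.26, 0.04, 0.32 and 0.43. In Bnip3l they gave 0.44 ± 0.11 SE (0.0315) and 0.12 ± 0.12 SE (0.610). On Old array 6 the 2 probe sets of Bnip3l read 0.53 and 0.62, and on Young array 6 they read -0.53 and -0.15. In Gabarap they gave 0.33 ± 0.07 SE (0.00990) and 0.07 ± 0.07 SE (0.598), and the first separated the ages fully. The files do not place probe sets within a transcript, so differences between isoforms and between probes cannot be told apart.

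**Figure D4:**
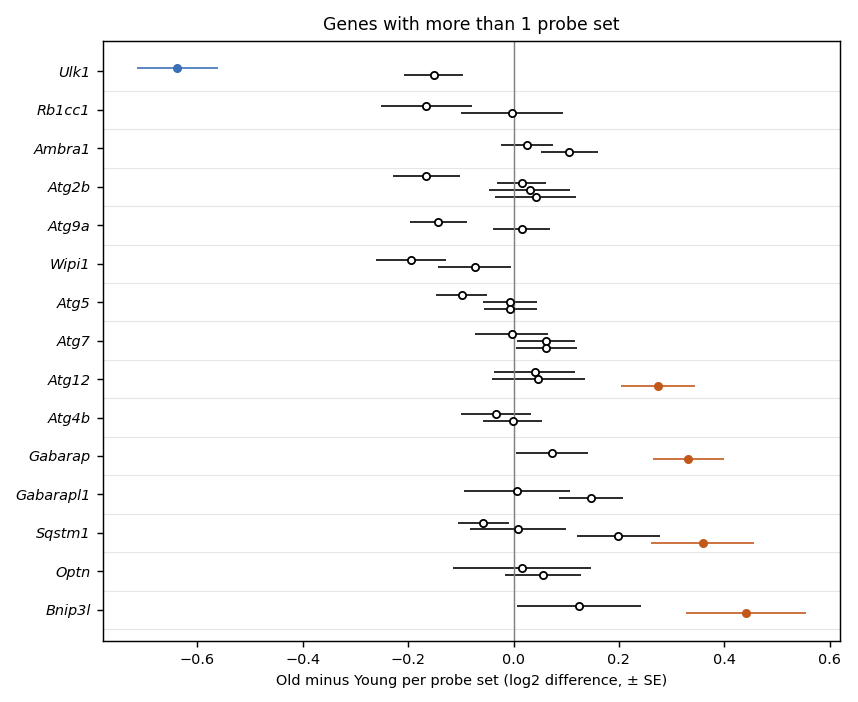
Difference Old minus Young (x axis, log2, ± SE, 5 arrays per age) of each probe set for the 15 genes with more than 1; filled points passed the test over all 31042 probe sets (blue lower, orange higher in Old). In Ulk1, Atg12, Gabarap, Sqstm1 and Bnip3l a single probe set passed and the others lay nearer to 0.

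Genes around the core machinery were read from 7 lists of regulators, fusion factors and other receptors, 90 genes of which 85 were measured. Of these, 5 rose and 7 fell (14.1%), against 11.9% of all genes, and their median difference was -0.03. Among the nutrient sensors that act on ULK1, 1 of 24 mTORC1-related genes rose and 2 fell. Deptor, an inhibitor bound to mTOR, gave 0.19, 0.32, 0.23, 0.20 and 0.10 on Young arrays and -0.24, -1.09, -0.15, -0.49 and -0.83 on Old arrays. Deptor separated the ages fully, and Old arrays 3 and 6 were lowest. It fell by 0.77 (SE 0.15, limma adjusted p = 0.00743). Flcn, which encodes folliculin, a switch for TFEB and its relatives at the lysosome, fell by 0.23 (0.0486). Lamtor5, a subunit of the lysosomal anchor of mTORC1, rose by 0.29 (0.00648). Of 7 genes for AMPK and its kinase 1 fell. This was Prkab1, a beta subunit gene, with 0.15, 0.30, 0.07, 0.13 and 0.19 on Young arrays and -0.07, -0.61, -0.40, -0.38 and -0.44 on Old arrays. Prkab1 also separated the ages fully and fell by 0.55 (SE 0.08, 0.00267).

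Of 10 other early genes, Wdr45b, a relative of the WIPI genes, rose by 0.24 (limma adjusted p = 0.0231). Tp53inp2, whose product carries LC3 out of the nucleus, fell by 0.26 (0.00998). Of 16 fusion genes 1 rose, the SNARE gene Vamp8 (0.29 ± 0.09 SE, 0.0474), while Stx17, the SNARE of the autophagosome, gave -0.12 ± 0.05 SE (0.107). Of 16 other receptors 2 fell, both for mitochondrial proteins: Nipsnap2 by 0.73 (0.00267) and Phb2 by 0.17 (0.0417). Of 4 partners that restrain Beclin 1, Mcl1 rose (0.20 ± 0.05 SE, 0.0341). Of 8 transcription factor genes Tfec rose (0.37 ± 0.10 SE, 0.0320) and Zkscan3, a repressor of autophagy genes, fell by 0.29 (0.0253). Calls of Deptor, Prkab1, Lamtor5, Nipsnap2 and Tp53inp2 held with any 1 array left out, but that of Tp53inp2 was lost without Old arrays 3 and 6 together (limma adjusted p = 0.0593). Some sizes moved by more than 1.5 times. Nipsnap2 differed by -0.24 where the brightest probe sets alone were used or dim ones left out (limma adjusted p 0.0439 and 0.0417), Deptor by -0.50 without Old arrays 3 and 6, and Tp53inp2 by -0.43 with the brightest probe sets. The calls of the other 7 were lost without at least 1 array, with adjusted p up to 0.0749 for Wdr45b, 0.134 for Vamp8, 0.163 for Phb2, 0.105 for Mcl1, 0.183 for Flcn, 0.127 for Zkscan3 and 0.0812 for Tfec over all other settings tried.

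**Figure D5:**
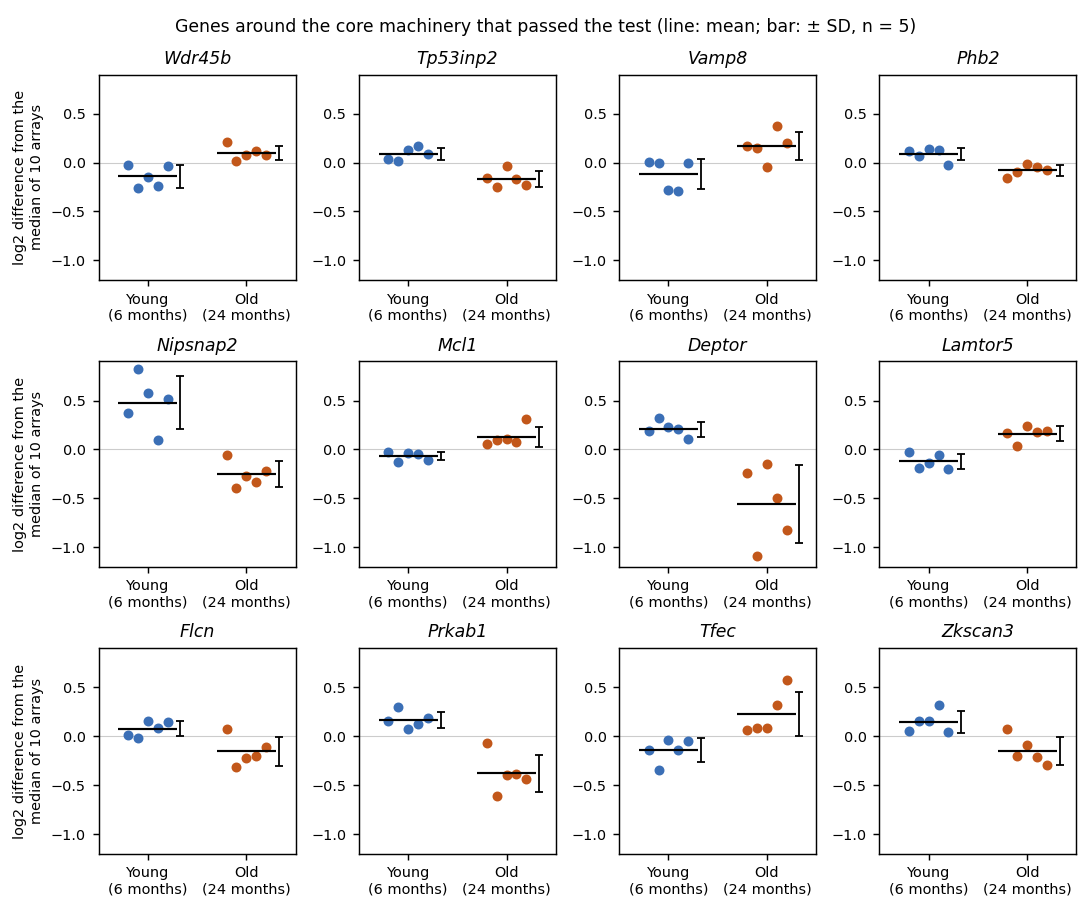
Gene value on each array for the 12 genes around the core machinery that passed the test. The y axis is the log2 difference from the median of the 10 arrays, taken per probe set and averaged over a gene's probe sets. Points are arrays, lines means and bars ± SD (n = 5). In Deptor the Young values lie at 0.10 or above and the Old ones run from -0.15 down to -1.09, and in Vamp8, Phb2, Flcn and Zkscan3 single arrays overlap.

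Array medians lay between -0.0097 and 0.0093. Marker lists of the heart's cell types moved with age over the same arrays. Macrophage markers had higher means in Old in 10 of 10 genes (4 rose), with a list mean from -0.41 to 0.0023 on Young and from 0.02 to 1.08 on Old arrays. Fibroblast markers were higher in 10 of 10 (5 rose), from -0.44 to -0.02 and from 0.03 to 0.54. Lymphocyte markers were higher in 8 of 11 (3 rose), with the highest mean, 0.95, on Old array 3. Those that rose were Gzma, Gzmb and Ptprc, while Cd3d, Cd2 and Cd79b had lower means (-0.12, -0.10 and -0.10). The highest on Old array 3 were Gzma (3.38), Prf1 (2.55) and Gzmb (2.23). Heart muscle markers were lower in 9 of 9 (2 fell), from 0.08 to 0.30 on Young and from -0.29 to 0.03 on Old arrays. Myh6 (-1.24), Ryr2 (-0.55) and Ttn (-0.52) differed most, and the others lay between -0.14 and -0.08. The 4 atrial markers were higher (2 rose), from -1.05 to -0.29 on Young and from 0.16 to 0.83 on Old arrays. Nppa differed by 2.69 (limma adjusted p = 0.00180) and Myl7 by 1.45 (0.0261), while Myl4 (0.26, 0.151) and Sln (0.16, 0.507) did not pass. Since the table holds no levels, the presence of heart muscle markers as such could not be checked. Adipocyte markers averaged 0.99 on Young array 2, with Adipoq at 2.99, and between -0.26 and 0.15 on the other arrays. The part of these shifts, and of the adipocyte values on Young array 2, in the values of Ulk1, Pik3c3, Gabarap and the 12 genes around them was not tested.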

How the data were processed

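Per the labels' protocols, total RNA of each of the 10 samples was amplified over 2 rounds, labelled with biotin and hybridised to the array. The authors' deposited table holds signed log2 values (base inferred), each probe set centred to a median of 0 over the 10 arrays (tolerance 1e-06). The background correction and normalization steps were not given in the sources used. For arrays, their number limits the precision.

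Names of probe sets came from the platform's annotation, with symbols checked by gene identifier against RefSeq (GRCr8, names alone): 20826 had 1 symbol, 436 several and 9780 none listed. Brightness classes rest on the size of the smallest numerical steps and are approximate. Old and Young were compared with limma 3.58.1 (lmFit, eBayes) in R 4.3.3, without covariates, over genes and over probe sets, with Benjamini-Hochberg adjustment. Intervals of 95% use limma's moderated error. On simulated data for this comparison over 14217 genes, 46 of 50 genes shifted by 0.5 and 20 of 50 shifted by 0.25 were recovered. In that simulation 14017 genes had no shift, where 11.9% of genes passed in the real data, so recovery may differ between them. Every member is named; members that passed, had a probe set that passed or did not overlap get all array values, as do some others named after their values were seen; of the lists of genes around the machinery, those that passed are named (Stx17 was added after its value was seen). Marker lists are given by counts and means. The red cell, atrial, heart muscle and lymphocyte markers and the adipocyte values on single arrays were named after their values were seen. Members and lists were chosen with earlier results of these data known. Of the remaining markers, 2 of 7 endothelial and 1 of 7 smooth muscle genes rose, and 0 of 5 adipocyte and 0 of 3 red cell genes passed by limma (2 and 0 at an unadjusted p under 0.05).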

Additional observations from a re-analysis of the deposited data

Results flagged for a closer look

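The value of Bnip3l on Old array 6, 0.57, lay apart from the other 4 Old arrays, the nearest at 0.11. The value of Mcl1 on the same array, 0.31, lay apart from the other Old arrays, the nearest at 0.11. Both were found by Dixon's test for an outlying sample among 5, over 90 groups of arrays, where chance gives about 1 in 20. The 2 found were a smaller share of the 90 groups than that.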

How the results depend on the processing

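Ulk1 passed under all 19 other settings tried, with adjusted p up to 0.0103. Of all 33 genes, 25 kept their direction under each of them; the largest main difference among the other 8 was 0.05. The count of core genes that passed was 3, and it was 5 with array weights (Becn1 and Atg10 added), 1 with the replicate block (Pik3c3 at 0.31, adjusted p = 0.130, and Gabarap at 0.21, 0.0729, were lost), 1 without Old arrays 3 and 6 together, and 1 to 4 without 1 array. All genes that passed numbered 1686, with 1069 under the replicate block, 1012 without Old arrays 3 and 6, and 988 to 1994 without 1 array (988 without Young array 3, 1003 without Old 5, 1047 without Young 2, 1089 without Old 6). Higher calls made up 57.1%, and 67.4% under the block. Probe sets that passed numbered 2492, with 1640 under the replicate block and 1481 to 2943 without 1 array. The titles' numbers 2, 3, 4 and 6 occur at both ages, but same-numbered arrays correlated at 0.03 to 0.15 in their deviations, 1 of 4 pairs above 0.1, and 2 of 8 arrays correlated best with their own number, so they were not taken as pairs; the block leaves Young 1 and Old 5 without weight. The direction turned for Ulk2 under the replicate block (-0.017) and without 1 array for Ulk2 (-0.017 to 0.039), Atg13 (-0.011 to 0.076), Pik3r4 (-0.053 to 0.0032), Atg14 (-0.025 to 0.11), Atg2b (-0.041 to 0.0078), Atg4b (-0.047 to 0.0019), Atg4d (-0.056 to 0.040) and Fundc1 (-0.0064 to 0.11), none of which passed. Where a call was lost the cause was not tested, beyond the fewer arrays in the fit. The arrays hold no level, so signal over background was not analysed here.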
